A study of Mus musculus with 33 samples.

Results

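The lung of the newborn mouse was compared between the last 2 times of its first day in room air: 3 whole lungs taken 12 h after birth and 3 taken 24 h after birth, 6 of the 33 arrays of the series. The members were chosen by title alone, as the arrays named for newborns in 21% oxygen at 12 and at 24 h, with no measured value used. The pups were wild type, of dams that the methods give as C57B/6J, born and kept in room air (21% oxygen) and not treated. The labels spell the strain C57/BL for the first 24 h array and BL/57 for the other 5. RNA of each whole lung was measured on an Affymetrix MGU74Av2 array, a chip of 12488 probe sets of short oligonucleotides, of which 66 are controls, 10855 have 1 gene symbol, 396 several and 1237 none. The authors' deposited values are signal intensities on a linear scale, scaled to the same target on every array. The other lungs in room air, of fetal day 21 (F21), 2 h and 6 h with 3 arrays each, are used here as the steps before and in the same fit. Lungs in 10% oxygen, of F21, 2 h and 6 h with 3 arrays each, entered only the filter and the shared estimate of the spread. Their median SD between arrays was log2 0.419 to 0.48, against 0.315 for the 12 h and 0.363 for the 24 h lungs. Neither the labels nor the methods say whether the 3 pups of a time came from separate litters. The limma p-values measure the spread between samples of a group, pooled over the 8 lung groups of the fit and not over these 2 times alone.

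At birth the lung clears its liquid, fills with air, spreads surfactant and takes the whole output of the heart, within minutes to hours. Transcripts of fast response genes, such as those that cells switch on after stretch, stress hormones or oxygen, rise and fall on this scale, whereas those of structural cells (type 1 and type 2 epithelium, capillary endothelium, fibroblasts) turn over more slowly. The step from 12 to 24 h addresses which transcripts had reached a level that they kept and which still moved at the end of the first day.

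No transcript passed the test between 12 and 24 h. Of 6931 probe sets tested in limma over all 24 lung arrays, 0 (0%) had an adjusted p under 0.05, and the smallest adjusted p was 0.123. At an unadjusted p under 0.05 there were 274 (3.95%), 156 higher at 24 h (2.25%) and 118 lower (1.70%), where 346.6 would be reached by chance alone, and at an unadjusted p under 0.01 there were 60 (0.866%), 41 higher (0.592%) and 19 lower (0.274%), where chance would give 69.3. This last count was above that of chance in some other fits, at 105 with the 5 room air groups alone, 103 with a replicate block, 190 with array weights, 97 without the second 24 h array, and 96 and 92 in the methods' t-test on log2 and on linear signals. The methods' t-test gave 0 after Benjamini-Hochberg adjustment on either scale. The arrays of the 2 times did not overlap for 790 probe sets (11.4%), 388 higher (5.60%) and 402 lower (5.80%). With array weights, 4 probe sets passed (Arglu1, Actb, Gnb1 and Sema4a), and without the second 12 h array 1 passed (Ada, adenosine deaminase, at 15.1, 82.2 and 25.7 at 12 h and 158.3, 150.3 and 72.8 at 24 h, named after its values were seen).

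The steps between times became smaller over the day. From F21 to 2 h, 294 probe sets passed (4.24%), 102 higher and 192 lower, and from 2 to 6 h 240 passed (3.46%), 158 higher and 82 lower. From 6 to 12 h 5 passed (0.0721%), 1 higher and 4 lower. The median size of the difference was log2 0.405, 0.399, 0.284 and, from 12 to 24 h, 0.248. Differences over 2-fold were measured for 899, 848, 430 and 310 probe sets in these steps. Neighbouring steps share the arrays of the time between them, and their counts were not tested against each other. BioB-3, a spike control added while an array is prepared, also differed between these times. It read 226.6 to 529.4 at F21, 75.9 to 110.7 at 2 h and 258.8 to 501.4 at 6 h. At 12 h it read 73.9 to 99.5 and at 24 h 109.8 to 188.3. Its part in the size of the steps was not tested.

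A p that misses the threshold does not show that a level was kept, and the interval of the difference was used instead. For 2765 probe sets (39.9%) the 95% interval lay within log2 -1 to 1, that is, within 2-fold in either direction, and these are called settled here. The same share was 28.7% from F21 to 2 h, 29.0% from 2 to 6 h and 36.8% from 6 to 12 h. The interval reached log2 0.86 to either side at the median, so that the share depends on signal: of 4 classes of equal size by signal, 81.4% of the brightest were settled, 53.9% and 22.7% of the 2 between, and 1.56% of the dimmest. With the BioB spike control as a covariate, 1715 were settled.

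**Figure D1:**
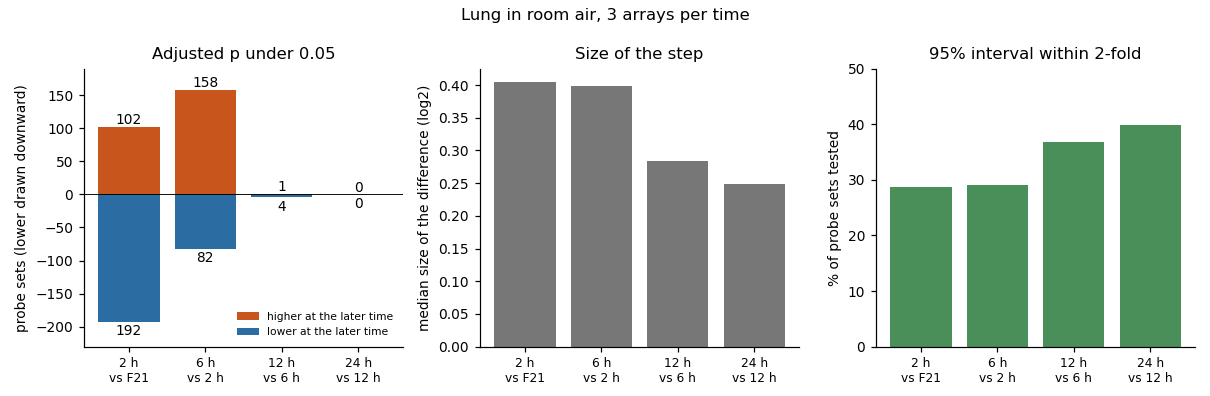
Lung in room air, 4 steps of the first day. Left, the number of probe sets past an adjusted p of 0.05, higher upward and lower downward, falling from 102 and 192 in the first step to 0 and 0 in the last; middle, the median size of the difference over all 6931 probe sets (log2), from 0.405 to 0.248; right, the percentage whose 95% interval lies within 2-fold, from 28.7% to 39.9%.

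Of the lung markers the epithelial Sftpc, Ager and Scgb1a1 were bright at both times, whereas others were dim, such as Pecam1 of endothelium (34.5 to 100.5 at 12 h and 69.8 to 98.4 at 24 h) and Myh11 of smooth muscle (5.2 to 62.7 and 20.4 to 80.2). Sftpc, the surfactant protein C of type 2 cells and the brightest probe set, had signals of 39707.5, 34069.6 and 33975.2 at 12 h and 41462.8, 45559.1 and 43703.8 at 24 h. The 24 h arrays lay above the 12 h arrays, and the difference of log2 0.28 (95% interval -0.25 to 0.81) was settled. Ager, the receptor that marks type 1 cells, had a median signal of 4569 at 12 h and 5186 at 24 h and Scgb1a1, the secretoglobin of club cells, 8350 and 7274. Markers of tissues next to the lung were dim or overlapped. The summed signal of 4 heart genes was 297, 439 and 1642 at 12 h, in order of size, and 556 to 843 at 24 h. The overlap thus rests on 1 high 12 h array, and the share of heart tissue in that sample was not tested. The sum of 3 liver genes was 63.8 to 80.8 and then 30.7 to 101, and of 2 thymus genes 175 to 190 and then 95 to 268. The sum of 2 red cell genes (Hba-a1 and Alas2) was 14567 to 26934 at 12 h and 26931 to 30561 at 24 h. Of 21 cell types with markers on the array, the sums did not overlap for 6: type 2 and endothelial sums were higher at 24 h, and ciliated, neutrophil, mast and nerve sums lower, where 11.4% of single probe sets did not overlap. The mast sum (37.5 to 57.7 and then 14.8 to 32.4) and the nerve sum, of Nefl alone (15.4 to 35.5 and then 2.3 to 14.4), rest on dim genes that were not tested. Sftpb of type 2 cells (log2 -0.25), Tek of endothelium (-0.07) and Ltf of neutrophils (1.06) lay on the side opposite to their sums. So did the dim, untested Tekt1 of ciliated cells (medians 19.4 and 30.5). In the wider lists below, 41 endothelial and 25 type 2 cell genes had medians of log2 -0.08 and -0.21. In whole lung, fewer cells of a type and less RNA per cell cannot be told apart.

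The test that did find transcripts was that of a turn at 12 h, the step from 12 to 24 h minus the step from 6 to 12 h. Of 6931 probe sets, 6 passed (0.0866%), and in these 6 the signal was lowest at 12 h and higher at both 6 and 24 h. They were 2 probe sets of Actb, the cytoplasmic beta actin, and 1 each of Sdc4, the heparan sulfate proteoglycan syndecan 4 of cell adhesions, Gnb1, a beta subunit of heterotrimeric G proteins, and Arglu1, an arginine and glutamate rich nuclear protein linked to RNA processing, and 101179_at, which has no gene symbol in the annotation of the array. At an unadjusted p under 0.01 there were 91 (1.31%), 54 with a low at 12 h (0.779%) and 37 with a high (0.534%). Both steps of the turn share the 12 h arrays, so that an array effect at 12 h enters both.

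RefSeq (GRCm38.p6) promoters were at hand for 2 of the 4 named genes of the turn, Gnb1 and Sdc4. The 250 bases before the start are shown because these genes passed the same test of the turn. Each GC box (GGGCGG, on either strand), the site of Sp and Kruppel-like factors, is in capitals. Gnb1 is on the plus strand at chr4:155491111-155491360 and Sdc4 on the minus strand at chr2:164443189-164443438.
Gnb1: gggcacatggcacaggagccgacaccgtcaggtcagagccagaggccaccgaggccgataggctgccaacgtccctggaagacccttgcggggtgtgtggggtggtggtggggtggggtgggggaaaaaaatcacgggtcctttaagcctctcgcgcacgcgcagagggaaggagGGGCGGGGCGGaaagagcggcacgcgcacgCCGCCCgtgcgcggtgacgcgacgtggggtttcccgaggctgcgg
Sdc4: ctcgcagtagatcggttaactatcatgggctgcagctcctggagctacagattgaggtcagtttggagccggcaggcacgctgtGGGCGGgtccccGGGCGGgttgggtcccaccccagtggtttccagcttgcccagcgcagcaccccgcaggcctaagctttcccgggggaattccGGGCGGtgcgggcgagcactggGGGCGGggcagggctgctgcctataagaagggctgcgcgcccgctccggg
The Gnb1 stretch holds 3 GC boxes, of which 2 overlap by a base, and the Sdc4 stretch holds 4. A GC box was in 32.7% of the 32851 promoters of the table, over the same length. Neither stretch held a cyclic AMP response element (TGACGTCA, in 1.55% of promoters), an E-box of the clock factors (CACGTG, 6.02%), a CCAAT box (33.8%), a TATA box (TATAAA, 12.4%) or the CArG box of serum response factor (1.47%), searched on both strands. A match or its absence is a description of these letters only.

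Actb gave the largest turn of the 6. Its probe set 95705_s_at had signals of 4360.6, 6333.6 and 8509.3 at 6 h, 1659.3, 987.8 and 1183.4 at 12 h and 3419.9, 3288.6 and 3541.0 at 24 h. Each 12 h array lay below each array of the times beside it. The turn was log2 3.76 (standard error 0.52, adjusted p = 0.00134 in limma), made of a fall of log2 -2.31 from 6 to 12 h (adjusted p = 4.74e-04 in limma) and a difference of 1.45 from 12 to 24 h (95% interval 0.83 to 2.08) that did not pass by itself (adjusted p = 0.131). The other probe set, 101578_f_at, had 837.9, 498.3 and 662.9 at 12 h and 1523.8, 1411.9 and 1749.0 at 24 h, and a turn of 3.54 (adjusted p = 0.0096 in limma). The 3 bright control probe sets for Actb on the same chip were also lower at 12 h than at 6 h without overlap, but did not return at 24 h. The one at the 3′ end read 7453.6, 6498.4 and 6049.1 at 6 h, 4987.7, 5387.7 and 4370.7 at 12 h and 5101.8, 4483.9 and 4608.4 at 24 h, a difference of log2 -0.05, and the middle one was lower at 24 h without overlap, by log2 -0.44. The 5 probe sets thus have the lower signal at 12 h than at 6 h in common and disagree on the step from 12 to 24 h.

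Sdc4 was nearly level among the 12 h lungs and spread at 24 h. Its signals were 743.3, 736.4 and 828.2 at 6 h, 261.9, 263.9 and 253.6 at 12 h, and 620.9, 351.2 and 577.7 at 24 h. It fell by 1.56 on the log2 scale from 6 to 12 h (adjusted p = 0.00232 in limma), differed by 0.95 from 12 to 24 h (0.44 to 1.45, adjusted p = 0.567) and had a turn of 2.51 (adjusted p = 0.0096). The second 24 h array lay well under the other 2 but above each 12 h array.

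Gnb1 read 320.2, 423.7 and 424.8 at 6 h, 186.7, 226.6 and 166.9 at 12 h and 397.4, 341.1 and 392.1 at 24 h, with a turn of log2 1.98 (adjusted p = 0.0154 in limma). The 24 h arrays were back in the range of 6 h. Its 2 other tested probe sets gave 0.07 and 0.31 from 12 to 24 h and turns of 0.52 and 0.58 (adjusted p = 0.999 and 0.940 in limma), so that the low at 12 h rests on 1 of 3 probe sets. Arglu1, the probe set with the smallest p in the step from 12 to 24 h, read 399.5, 432.7 and 454.3 at 12 h and 867.4, 745.9 and 830.6 at 24 h, a difference of log2 0.92 (0.56 to 1.29, adjusted p = 0.123 in limma) and a turn of 1.65 (adjusted p = 0.0247). Its 24 h arrays did not overlap with those of 12 h, and its 24 h level differed from F21 by log2 -0.04. The unnamed 101179_at read 406.1, 418.6 and 451.0 at 12 h and 642.7, 563.5 and 615.5 at 24 h, with a turn of 1.96 (adjusted p = 0.0353).

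The spike controls are bacterial and phage transcripts (BioB, BioC, BioDn and CreX) that are added while an array is prepared. From 6 to 24 h they moved with these 6 probe sets. BioB-3 was 258.8, 293.2 and 501.4 at 6 h, 87.1, 99.5 and 73.9 at 12 h and 188.3, 109.8 and 152.5 at 24 h. At 2 h BioB-3 was also low, at 75.9 to 110.7, but not all 6 probe sets were. The Actb probe set 95705_s_at was low too (1331.8 to 1995.9) and overlapped its 12 h range. The other Actb probe set, Arglu1, Sdc4 (455.1 to 641.5) and Gnb1 (367.0 to 414.7) lay above each of their 12 h arrays at 2 h. All 9 spike probe sets were higher at 24 h than at 12 h without overlap, by ratios of the means of 1.34 to 1.84. The 3′ control for 18S ribosomal RNA was 244.8, 207.8 and 260.1 at 12 h and 439.9, 340.9 and 456.4 at 24 h, also without overlap. With log2 BioB as a covariate 0 of 6931 probe sets passed the test of the turn. The turns of the 6 were then log2 0.94 to 2.15, with 1.44 for Arglu1 and 1.62 for 101179_at, near their values without the covariate, and 2.15 and 0.94 for the Actb probe sets, 1.13 for Gnb1 and 1.01 for Sdc4, well under theirs. Beyond this fit the part of array preparation in it was not tested. Without 12 h array 1, 2 or 3, in turn, 2, 3 and 1 probe sets passed, and without 24 h array 1, 2 or 3, in turn, 4, 7 and 3. The Actb probe set 95705_s_at passed in each of these 6 fits. Over 17 alternative settings, the BioB fits among them, its turn missed the threshold in 2. Those of Gnb1 and Sdc4 missed it in 5 each and that of the other Actb probe set in 6. The turns of Arglu1 and 101179_at, which moved least with BioB, missed it in 8 and 11.

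**Figure D2:**
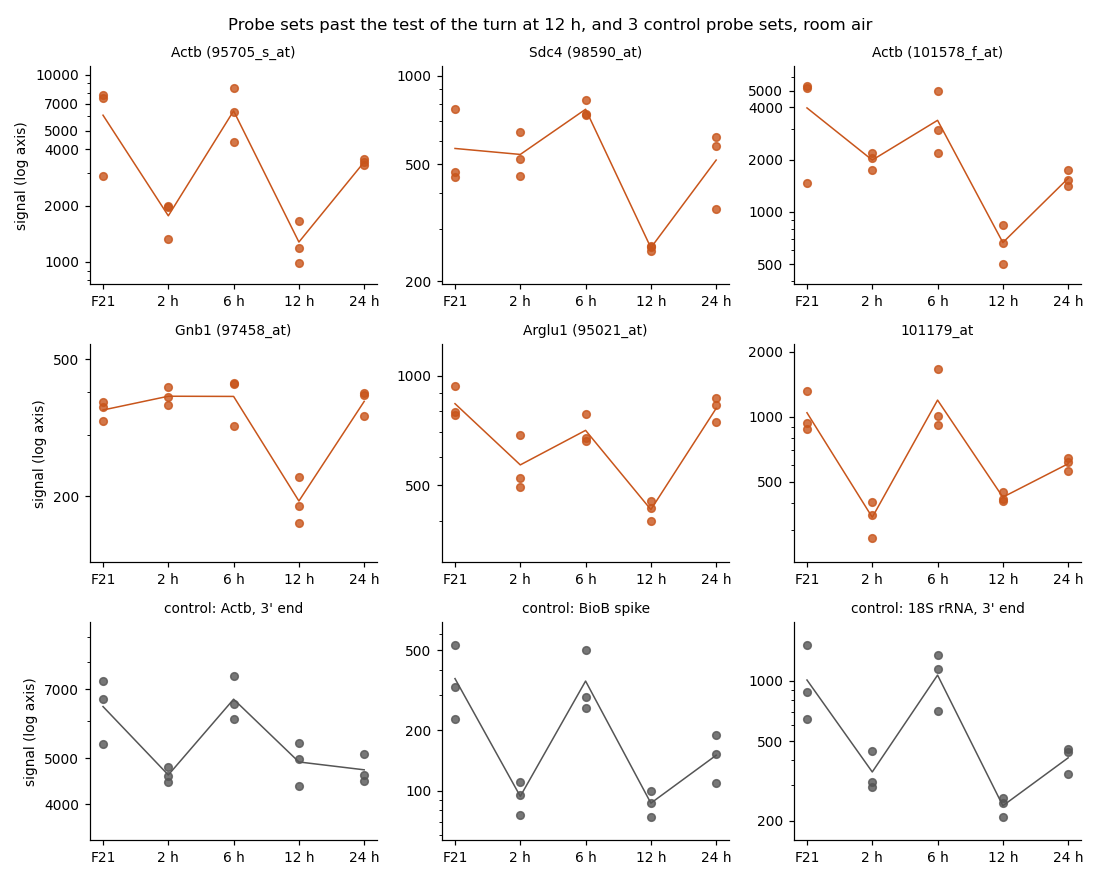
Signals of each array (points, log axis) and their mean (line) at F21 and 2, 6, 12 and 24 h in room air. The upper 6 panels are the probe sets past the test of the turn, each lowest at 12 h among the last 3 times; the lower 3 panels are control probe sets, of which BioB and 18S are also lower at 12 h than at 6 and 24 h and the 3′ control of Actb is level from 12 to 24 h.

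The probe sets closest to the threshold were read array by array, with the reservation that none passed between 12 and 24 h. On the higher side, beside the genes of the turn, stood Dvl1, Cdh5, Notch2, Ppic, Inpp5k, Rest, Rbm39, Qrich1, 2510002D24Rik and Bag6. Dvl1, the dishevelled protein that relays Wnt signals, read 234.5, 236.3 and 287.1 at 12 h and 470.2, 513.1 and 449.2 at 24 h, a difference of log2 0.92 (0.46 to 1.39, adjusted p = 0.397 in limma). The 24 h arrays were close to each other and above each earlier array of this probe set. Cdh5, the VE-cadherin that joins endothelial cells, read 314.7, 302.0 and 260.1 at 12 h and 560.3, 543.8 and 379.6 at 24 h, a difference of 0.74 (0.29 to 1.20). Notch2, a receptor for ligands on neighbouring cells, read 90.4, 42.9 and 75.6 at 12 h and 184.8, 94.5 and 153.9 at 24 h, 1.07 (0.42 to 1.72), where its other probe set gave 0.20. Ppic, the prolyl isomerase cyclophilin C, gave 0.86 (0.37 to 1.36) and Inpp5k, an inositol phosphatase, 0.94 (0.37 to 1.51).

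Rest, a repressor of neuronal genes, was near the floor at 12 h, with 7.4, 12.8 and 22.9, and read 57.7, 49.4 and 43.7 at 24 h (log2 1.80, adjusted p = 0.691 in limma). Rbm39, a splicing factor, was higher without overlap at both of its probe sets, by 1.01 and 1.26. Qrich1, a glutamine-rich nuclear protein, gave 1.12 and 2510002D24Rik, a gene without a settled function, 1.38. Bag6, a chaperone of proteins on their way to membranes, gave 2.62 at 101854_r_at, from 51.5, 7.1 and 26.3 to 139.8, 178.2 and 127.3, but -0.29, -0.80 and -0.52 at its 3 other probe sets. Its probe sets disagree, and no direction is given for the gene.

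On the lower side, Sema4a, a membrane semaphorin of guidance and immune contacts, stood first. It read 148.1, 138.1 and 150.6 at 12 h and 21.0, 54.3 and 25.9 at 24 h, a difference of log2 -2.23 (standard error 0.44, 95% interval -3.15 to -1.32, adjusted p = 0.123 in limma). Its 12 h arrays lay together and its 24 h arrays below each array of the earlier times. Colq, the collagen tail of acetylcholinesterase, read 106.0, 235.7 and 212.5 and then 32.8, 29.6 and 84.1, a difference of -2.01 (-2.97 to -1.04, adjusted p = 0.291). Pspn, the neurotrophic factor persephin, read 188.2, 151.8 and 123.5 and then 38.7, 41.6 and 41.3, and Cdc45, a part of the replicative helicase, 57.1, 68.2 and 85.9 and then 17.1, 19.3 and 16.9, with differences of -1.91 and -1.97. The 24 h arrays of Pspn and Cdc45 also lay below each array of the earlier times.

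Igfbp4, a binding protein that holds insulin-like growth factors, gave log2 -0.84 (-1.31 to -0.36, adjusted p = 0.709 in limma) and -0.39 at its other probe set. Tmem109, a membrane channel protein, gave -1.0, Lrch4, a leucine-rich repeat protein, -0.92, Cd276, an immune checkpoint protein, -0.90, and Pafah1b3, a subunit of platelet activating factor acetylhydrolase, -0.70. Dhrs4, a carbonyl reductase, gave -1.74 and the unnamed 160362_at -0.71. Ywhag, a 14-3-3 adaptor, gave -2.45 at 102259_at with 1 of 3 24 h arrays under the floor of 10, and 0.17 at its brighter probe set. Reln, the extracellular glycoprotein reelin, was under the floor on all 3 24 h arrays (8.1, 4.7 and 9.2, against 90.6, 37.9 and 29.4 at 12 h), so that no fold is given.

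**Figure D3:**
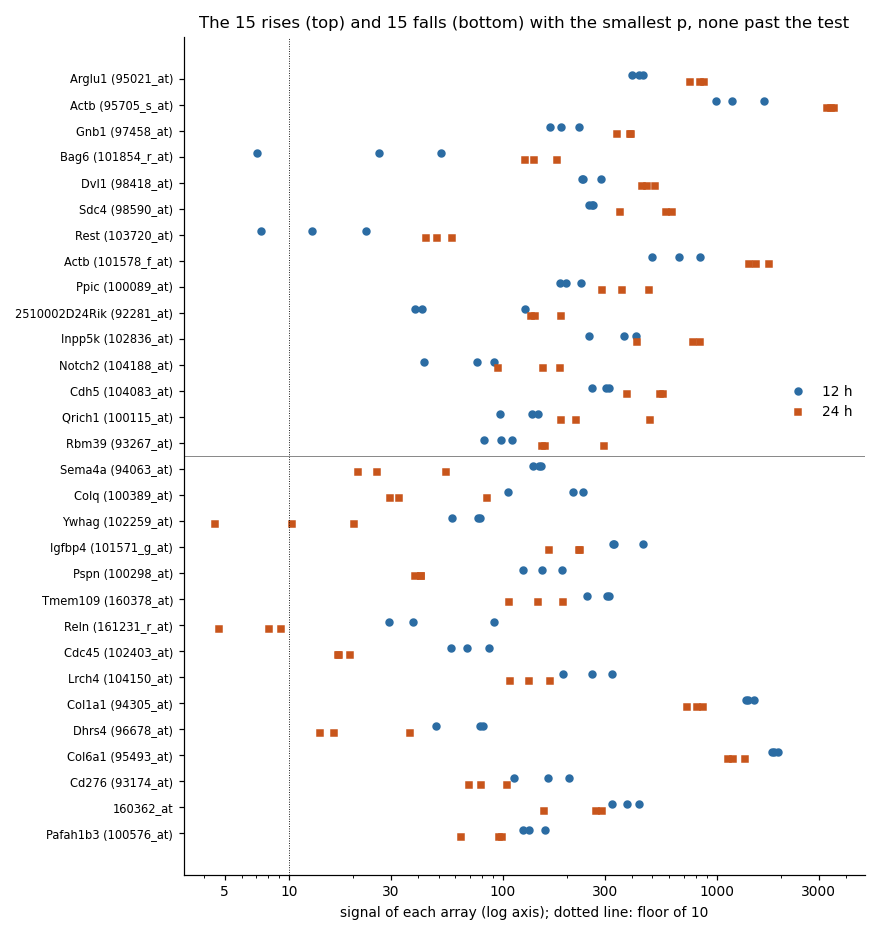
Signals of each array at 12 h (circles) and 24 h (squares) on a log axis for the 15 probe sets higher and the 15 lower at 24 h with the smallest unadjusted p and no overlap, none of which passed the adjusted test. Sema4a is at 138.1 to 150.6 at 12 h and 21.0 to 54.3 at 24 h; the dotted line is the floor of 10.

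Among matrix genes, Col6a1, the alpha 1 chain of collagen VI, read 1931.9, 1804.9 and 1844.2 at 12 h and 1362.6, 1134.2 and 1195.1 at 24 h, log2 -0.60 (-1.02 to -0.18, adjusted p = 0.999 in limma), and its other probe set gave -0.38. Col1a1, the alpha 1 chain of collagen I, read 1487.3, 1404.6 and 1367.6 and then 864.3, 807.1 and 723.8 at 94305_at (-0.83), but 1122.0, 1366.4 and 1034.0 and then 1547.6, 1657.3 and 1439.4 at 103709_at (0.41). Both probe sets separated the 2 times, in opposite directions, and no direction is given for Col1a1. Of 67 collagen and other matrix genes tested, 32 were above and 35 below 0 with a median of -0.04, 34 were settled (50.7%), and 3 were lower and 0 higher at p under 0.05 before adjustment, against 1.63% and 2.29% of all genes.

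The genes that responded early after birth differed little between 12 and 24 h at the median. They were chosen by an adjusted p under 0.05 at 2 h or 6 h against F21, from arrays that the step from 12 to 24 h does not use, other than for the shared estimate of the spread. Of 141 probe sets higher early, 0 passed between 12 and 24 h (13 had a higher and 2 a lower level at an unadjusted p under 0.05, against 2.25% and 1.70% of all probe sets), 95 lay above and 46 below 0 with a median of log2 0.14, and 58 were settled (41.1%). They were above F21 by a median of 0.75 at 12 h and 0.82 at 24 h, both from the same F21 arrays. These F21 arrays also took part in choosing the set, so that a median above 0 was partly set by the choice. Of 203 lower early, 0 passed (before adjustment 9 were higher and 5 lower at p under 0.05, set against the same shares), 104 lay above and 99 below 0 with a median of 0.02, and 151 were settled (74.4%). They were below F21 by a median of log2 -0.33 at 12 h and -0.30 at 24 h, where the choice by F21 enters in the same way.

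The early risers spread more among the 24 h lungs. Their median SD between the 3 arrays of a time was log2 0.483 at 24 h, against 0.315 at 12 h and 0.296 at 6 h, and over all probe sets tested it was 0.363 at 24 h. Their median signal was 219, against 105 over all. Wdr92, an axonemal dynein assembly factor, read 29492.6, 6936.4 and 12892.7 at 12 h and 23390.4, 4218.4 and 18104.9 at 24 h, against 2002.4 to 2295.9 at F21. Cdkn1a, the p21 inhibitor of the cell cycle, read 757.9, 171.2 and 277.1 and then 827.3, 141.8 and 483.1, where its other probe set gave log2 -0.43 (-1.42 to 0.55). Ppp1r2, a regulator of protein phosphatase 1, read 146.6, 22.8 and 70.9 and then 220.1, 12.8 and 49.8. In each the second array was the lowest and the first the highest at both times, although the numbers mark no pairing in the labels, and the difference between times (-0.19, 0.22 and -0.25) was under the spread within a time.

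Nr4a1, Ctrl, Adam28 and A4galt, also early risers, were under their 2 h range at both 12 and 24 h. Nr4a1, an orphan nuclear receptor of fast responses, was 147.4 to 460.8 at 2 h, 69.1, 25.2 and 12.8 at 12 h and 101.4, 25.8 and 12.2 at 24 h, against 13.2 to 47.6 at F21, so that the first array of each time was above the F21 range and the others were within or just under it. Ctrl, a chymotrypsin-like protease, was 275.0 to 357.5 at 2 h and then, at 12 and 24 h, 10.3 to 14.1 and 8.8 to 33.9, against an F21 range of 7.6 to 12.1. Adam28, a metalloprotease of leukocytes, was 215.8 to 247.0, 20.7 to 33.4 and 14.5 to 25.1, against 12.5 to 42.1 at F21. A4galt, a glycolipid galactosyltransferase, was 306.3 to 362.5, 48.5 to 96.5 and 38.4 to 96.0, against 14.6 to 72.3 at F21. Early fallers gave small differences from 12 to 24 h. Tef, an output factor of the clock, read 412.8, 365.9 and 532.3 and then 542.9, 348.8 and 381.8 (-0.05, -0.86 to 0.76), and was settled. Smarcad1, a chromatin remodeler, gave 0.19 (-0.64 to 1.01) and Dctpp1, a nucleotide pyrophosphatase, 0.10 (-1.16 to 1.35). Another probe set of Dctpp1 gave -0.34 (-1.15 to 0.47), lower without overlap. Tyro3, a receptor tyrosine kinase, read 9.5, 6.6 and 31.8 at 12 h and 11.5, 6.5 and 43.7 at 24 h against 41.6 to 65.8 at F21, which the highest 24 h array reached.

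**Figure D4:**
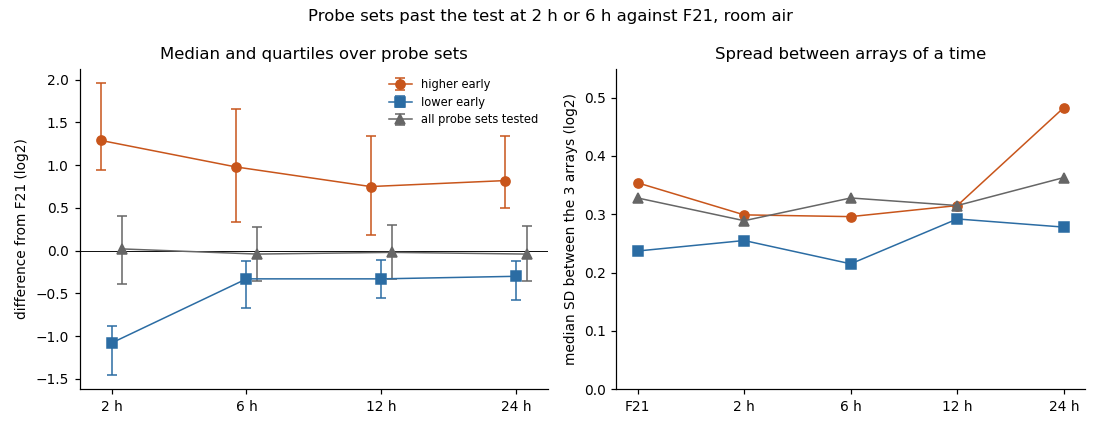
Left, median and quartiles of the difference from F21 (log2) at 2, 6, 12 and 24 h for the 141 probe sets higher early, the 203 lower early and all 6931 tested; the medians are 0.75 and 0.82 for the first set at 12 and 24 h. Right, the median SD between the 3 arrays of a time (log2), which for the early risers is 0.315 at 12 h and 0.483 at 24 h.

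Klf4, the Kruppel-like factor that the study followed, could not be placed within 2-fold between the 2 times. It read 265.1, 167.3 and 310.9 at 12 h and 539.9, 156.7 and 207.6 at 24 h, against 77.0 to 97.0 at F21. Each array of both times lay above each F21 array, and the times overlapped (log2 0.12, 95% interval -0.86 to 1.09). Klf5, a relative in epithelium, was settled at -0.05 (-0.55 to 0.45). Acta2, the smooth muscle actin, gave 0.40 (-0.31 to 1.12), Fn1, fibronectin, -0.32 (-0.69 to 0.04), Tnc, tenascin C, 0.08 (-0.82 to 0.98), Krt8, a keratin of simple epithelium, -0.31 (-0.86 to 0.24), and Pcna, the replication clamp, 0.44 (-0.27 to 1.14). Itgb1, the beta 1 integrin, read 2006.9, 1079.5 and 1415.6 and then 3376.6, 2356.1 and 2901.1, higher without overlap by 0.97 (0.27 to 1.67, adjusted p = 0.999 in limma). Of 12 Kruppel-like and Sp factors tested 8 were above and 4 below 0 and 5 were settled, and Klf6 read 375.1, 139.1 and 267.0 and then 847.8, 211.1 and 475.7 (0.87, -0.08 to 1.82).

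In the gene lists, with 1 probe set per gene, 0 genes passed in limma. The median of 34 of the 44 lists changed sign in at least 1 of 14 alternative settings. Over all 5323 genes 0 passed, and 209 (3.93%) had an unadjusted p under 0.05, 122 of them higher (2.29%) and 87 lower (1.63%). Of these genes 2603 lay above 0 (48.9%) and 2720 below (51.1%), the median was log2 -0.01 and 2250 were settled (42.3%). In 8 lists 60% or more of the genes were settled. Of 26 cytosolic ribosomal proteins 21 were settled (80.8%), of 59 genes of oxidative phosphorylation 47 (79.7%), of 25 type 1 cell genes 18 (72.0%), of 57 actins and actin-binding proteins 41 (71.9%), of 36 proteasome and ubiquitin genes and 36 cold-inducible and splicing factors 24 each (66.7%), of 45 chaperones 27 (60%) and of 25 surfactant and type 2 cell genes 15 (60%). Next to Sftpc the brightest settled probe sets were Rpl41 and Rps28, of the ribosome, Eef1a1, an elongation factor, and 96358_at, at 0.22 (-0.26 to 0.69), 0.19, 0.26 and 0.05. Other probe sets of Rps28 gave -0.15 at 100758_at, also settled, and 1.06 at the dim 98086_r_at, higher without overlap and not settled. Sod1, the cytosolic superoxide dismutase, was settled although its arrays did not overlap, at 1141 ± 228 (SD, n = 3) and 1640 ± 299 (log2 0.53, 0.15 to 0.90).

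The macrophage, interferon and MHC lists had medians below 0. Of 25 macrophage and monocyte genes 5 were above and 20 below 0 with a median of log2 -0.27, of 20 genes of interferon response and MHC class I 3 and 17 with -0.19, and of 8 MHC class II genes 3 and 5 with -0.33. These medians were below 0 in each of 14 alternative settings, and 1 macrophage gene, 0 interferon genes and 2 class II genes were lower at an unadjusted p under 0.05, against 1.63% of all genes. The 2 were Cd74, the invariant chain, and H2-Ab1, a class II beta chain, at -0.75 (-1.38 to -0.13) and -1.75 (-3.33 to -0.17), and Cd74, which both lists hold, is also the macrophage gene. Apoe, an apolipoprotein that macrophages make, gave -0.61 (-1.31 to 0.10). The defining macrophage markers were 83.1 to 165.5 for Cd68 at 12 h and 99.0 to 132.7 at 24 h, and 1296 to 2064 and 646 to 1977 for Lyz2. Of 14 neutrophil and alarm genes 6 were above and 8 below 0 (-0.19). Lcn2, lipocalin 2, gave -1.08 and 0.29 at its 2 probe sets, Ltf, lactotransferrin, 1.06 (-0.30 to 2.41), and S100a8, a calgranulin, was at 478.1 to 596.8 and then 280.0 to 430.9 (-0.52). Of 17 lymphocyte genes 7 were above and 10 below 0 (-0.17), and Cd3e, the T cell marker, was at 11.1 to 16.3 on the 6 arrays.

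Of 25 surfactant and type 2 cell genes 9 were above and 16 below 0 with a median of log2 -0.21, below 0 in each of 14 alternative settings, and 15 were settled (60%). The arrays did not overlap for 2 genes higher and 2 lower, where 11.4% of all probe sets did not, and 1 was higher and 3 lower at p under 0.05 before adjustment, against 2.29% and 1.63% of all genes. Scd1, a fatty acid desaturase, gave 1.25 (0.14 to 2.36), Pon1, a paraoxonase, -1.24 and Cebpa, a transcription factor of type 2 and fat cells, -0.44 (-0.89 to -0.00). Sftpb, surfactant protein B, gave -0.25 (-1.01 to 0.50). Of 25 type 1 cell genes 11 were above and 14 below 0 (-0.03), among them Anxa2, an annexin, at -0.46 (-0.86 to -0.06). Of 18 club, ciliated and airway genes 10 were above and 8 below 0 (0.09), and Foxj1, the regulator of ciliated cells, gave -0.61 (-1.29 to 0.07). Of 28 genes of lung liquid and ion transport 15 were above and 13 below 0 (0.03), and 14 were settled.

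In the vessels and mesenchyme genes lay on both sides of 0. Of 41 endothelial genes 17 were above and 24 below 0 (-0.08), with 3 on each side at an unadjusted p under 0.05, against 2.29% of all genes higher and 1.63% lower. Besides Cdh5, Emcn, endomucin of venous and capillary endothelium, gave 0.75 (0.26 to 1.24) and Efnb2, an ephrin of arteries, 0.80 (0.18 to 1.41), whereas Inmt, a methyltransferase of the lung, had a mean signal of 1946 at 12 h and 603 at 24 h (-1.78, -3.01 to -0.55). Of 22 smooth muscle genes 9 were above and 13 below 0 (-0.09), with Mylk, the myosin light chain kinase, at 0.58. Of 27 vasoactive genes 12 were above and 15 below 0 (-0.05), with Nos3, the endothelial nitric oxide synthase, at -1.18 (-2.46 to 0.10) and Edn1, endothelin 1, at 0.81 (-0.34 to 1.95). Of 24 proteases and inhibitors 16 were above and 8 below 0 (0.11), and of 36 TGF-beta and stretch genes 17 and 19 (-0.07). Of 53 Wnt, Notch, hedgehog and FGF genes 23 and 30 were above and below 0 (-0.09), and of 25 imprinted and IGF genes 11 and 14 (-0.08). In the last list Meg3, a maternally expressed long RNA, gave -1.0, but its other probe set was settled at 0.01 (-0.61 to 0.63). Dlk1, a Notch-like growth regulator, gave -0.92 (-1.73 to -0.10).

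Splicing factors lay mostly above 0. Of 36 cold-inducible and splicing factors 23 were above and 13 below 0 with a median of log2 0.17, above 0 in each of 14 alternative settings, 6 were higher and 0 lower at p under 0.05 before adjustment, against 2.29% of all genes higher, and 24 were settled (66.7%). Srsf5, a splicing factor of the serine and arginine rich family, had means of 281 and 541 (0.91, 0.25 to 1.57), Tra2b 102 and 166 (0.70), and Hnrnpl 75.9 and 137 (0.85). These 3 were named for their small p in the list, and all 3 separated the times without overlap. In the list 6 of 36 genes did so on the higher side and 0 on the lower. Of all 5323 genes 307 did so higher and 306 lower. The spike controls were higher at 24 h as well, as given above, and their part in this list was not tested beyond a fit with BioB as a covariate, where its median was 0.21.

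The fast response and metabolic lists had medians from log2 -0.10 to 0.18, against -0.01 over all genes. Of 38 immediate early genes 17 were above and 21 below 0 (log2 -0.04), of 21 glucocorticoid genes 17 and 4 (0.15), of 15 feedback inhibitors 6 and 9 (-0.04), of 46 p53 and growth arrest genes 29 and 17 (0.09), and of 65 cell cycle genes 37 and 28 (0.05). Of 16 clock genes 10 were above and 6 below 0 (0.18), with Per1, a repressor of the clock, at 0.89 (-0.03 to 1.81) and Nr1d2, a nuclear receptor of the clock, at 1.33 (-0.12 to 2.78). The hour of the day at collection is not given in the sources used here, so that clock time and age cannot be told apart. Of 36 hypoxia and glycolysis genes 17 and 19 were above and below 0 (-0.02), of 45 antioxidant genes 28 and 17 (0.09), of 22 fatty acid oxidation genes 8 and 14 (-0.10), of 22 sterol and fatty acid synthesis genes 9 and 13 (-0.04), of 28 polyamine and amino acid genes 15 and 13 (0.03) and of 12 retinoid genes 9 and 3 (0.14). Gpx3, a secreted glutathione peroxidase, had means of 2810 at 12 h and 1539 at 24 h (-0.99, -1.76 to -0.23), and Bach1, a repressor of heme oxygenase, 101 and 211 (1.06, 0.33 to 1.80).

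In the erythroid, muscle and pancreas lists few genes were settled, as in the MHC class II list (0 of 8) and the lymphocyte list (3 of 17, 17.6%). Of 21 erythroid genes 10 were above and 11 below 0 (log2 -0.02) and 2 were settled (9.52%), of 31 heart and skeletal muscle genes 13 and 18 (-0.08) and 3 (9.68%), of 14 pancreas and gut genes 7 and 7 (0.01) and 2 (14.3%). The summed signal of the erythroid genes was 20063 to 33764 at 12 h and 34219 to 37727 at 24 h, without overlap. Of single probe sets 11.4% did not overlap. Much of this sum was Hba-a1, which alone read 14177.3 to 26381.2 at 12 h and 26321.5 to 29978.9 at 24 h and overlapped. The sums of the macrophage list (11755 to 12694 and then 9212 to 10992) and the MHC class II list (577 to 789 and then 482 to 538) were lower at 24 h without overlap. The other such lists, of platelets and mast cells, liver, cartilage and nerve, and fat, held 6 to 13 tested genes each, with medians between -0.21 and 0.25 and 28.6% to 50% settled. The 10 lists whose median kept its sign in each of 14 alternative settings were the macrophage, interferon, MHC class II, type 2 cell and splicing lists and those of p53 and growth arrest, oxidative phosphorylation, antioxidants, cartilage and nerve, and the genes that the study named.

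**Figure D5:**
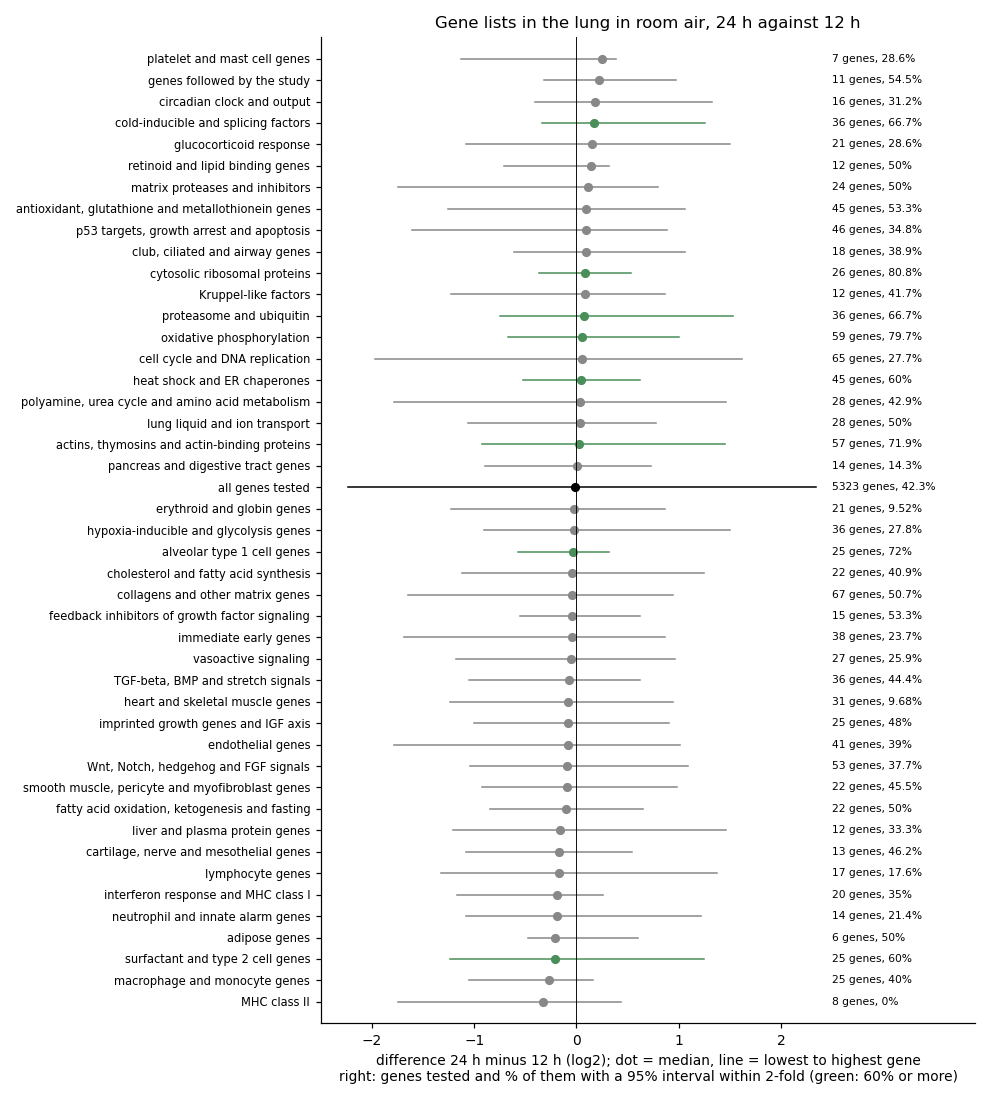
Difference 24 h minus 12 h (log2) for 44 gene lists and all 5323 genes, sorted by the median; the dot is the median, the line runs from the lowest to the highest gene, and the numbers at the right give the genes tested and the percentage settled. The medians lie between -0.33 (MHC class II) and 0.25 (platelet and mast cell genes), and lists with 60% or more settled are in green.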

How the data were processed

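Whole lungs were measured on Affymetrix MGU74Av2 arrays. Per the labels and methods, the authors made the deposited signal intensity values with the Affymetrix software MAS5, scaled to a common target on each array. No detection calls were used here. The genome build of the chip's design is not given in the sources used here.

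The floor of signal was 10, and differences are in log2. Tested were the 6931 of 12422 probe sets, controls left out, that ranked within the upper 40% of an array in 3 or more of the 24 lung arrays. The 8 lung groups, 5 in room air and the others in 10% oxygen, were fitted in limma 3.58.1 (R 4.3.3). The fit had a variance trend and 16 residual degrees of freedom. The threshold was a Benjamini-Hochberg adjusted p of 0.05, which replaced the methods' t-test without adjustment. The procedure was tested on simulated data. Symbols came from the annotation of the array (10855 probe sets with 1 symbol, 396 with several, 1237 with none).

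Named genes were the 15 probe sets in each direction with the smallest p and no overlap (none passed), those of the turn, the genes the study followed, early responders with the largest changes, the brightest settled probe sets and up to 4 members of a list. Gene lists used, per gene, the probe set with the highest mean signal. The gene lists and the genes in them were chosen with earlier results of these data known. Alternatives were another floor (1), a pseudocount (16), quantiles made equal across arrays, other filters and groups in the fit, a replicate block, covariates, array weights, the methods' t-test and leaving out each array.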

Additional observations from a re-analysis of the deposited data

How the results depend on the processing

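The count of 0 probe sets between 12 and 24 h was kept in each alternative but array weights (4) and leaving out 1 array (0 to 1). The count at an unadjusted p under 0.01, 60, was 105 in a fit of the 5 room air groups, 103 with the replicate block, 190 with array weights, 96 and 92 in the methods' t-test on log2 and linear signals, 41 to 97 without 1 array, 150 in the 5 room air groups with BioB as a covariate (chosen after seeing the data), and 46 to 76 otherwise. The settled count, 2765, was 1715 with BioB as a covariate, 2048 to 2353 without 1 array and 2449 to 3888 otherwise. Other filters changed the number of probe sets tested from 6931, so that their counts have another base. In the upper 30% by median signal 3719 were tested, with 2449 settled and 46 at an unadjusted p under 0.01. Without a filter 12422 were tested, with 3688 and 76. The turn at 12 h, 6, was 0 with BioB in both fits, 29 with array weights, 1 to 7 without 1 array and 5 to 7 otherwise. The fit of the 2 groups alone cannot give it. In the first BioB fit the turns were log2 0.94 to 2.15. Arglu1 kept 1.44 of 1.65 there, but its turn missed the threshold in 8 of 17 settings. The cause was not tested. Same-numbered arrays of 12 and 24 h deviated together with correlations of 0.275, 0.178 and 0.015, and arrays of different numbers with -0.254 to 0.103. The labels give no pairing, and the numbers were not taken as pairs. What arrays of the same number may share was not tested beyond the replicate block. With the block 0 probe sets passed between 12 and 24 h. Of 208 named probe sets 28 changed sign in some alternative and 4 passed in some, and 0 of the 30 closest to the threshold changed sign. With 3 arrays per time the interval, which is not adjusted for the number of tests, reached log2 0.86 to either side at the median. This width is not the limit of detection of the adjusted test. Smaller changes could be missed for most probe sets. Larger differences from 12 to 24 h also missed the adjusted threshold, such as Arglu1 at log2 0.92 and Sema4a at -2.23.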
